A study of Mus musculus with 47 samples.

Results

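Nrarp, Dtx1, Hes1 and Dtx4 are genes whose transcription is switched on directly by the Notch receptor, and they were taken by symbol as 4 of the 17754 genes in an RNA-seq table of 47 libraries of mouse T-cell precursors. The study asked what loss of the transcription factor Bcl11b does to these precursors, and whether it resembles a loss of Notch signalling. Levels are FPKM, a read measure divided by transcript length and by the size of the library. FPKM allows levels of different genes to be set side by side, and the lowest value the table lists is 0.1 FPKM.

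Notch is a receptor of the cell surface that is cut when a neighbouring cell presents a Delta-like or Jagged ligand. The last cut is made by the γ-secretase complex, and it frees the intracellular part of the receptor, which enters the nucleus and joins the DNA-binding protein RBPJ and a Mastermind co-activator to turn genes on. In the thymus this signal commits blood progenitors to the T-cell lineage, and OP9 stromal cells carrying Delta-like 1 (OP9-DL1) or Delta-like 4 (OP9-DL4) supply it in culture. Nrarp encodes a small ankyrin-repeat protein that binds the Notch nuclear complex and dampens it. Hes1 encodes a transcriptional repressor, and Dtx1 and Dtx4 encode E3 ubiquitin ligases of the Deltex family.

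Precursors pass from the DN2a stage, with very high Kit, through DN2b, with less Kit, to DN3. The fetal liver knockout groups came from Bcl11b-floxed embryos at E13.5 and held 8 libraries grown on OP9-DL1 and 6 grown on OP9-DL4. Their controls were Bcl11b-intact C57BL/6 precursors, 8 on OP9-DL1 and 3 on OP9-DL4, and both genotypes received a Cre retrovirus. The treatment protocol gives a DN2a gate for knockout cells and a DN2b gate for controls. The titles differ from this in part: of the knockout libraries 8 are titled DN2a, 5 DN2 and 1 DN2b, and of the controls 8 are titled DN2b and 3 DN2. Genotype and gate therefore cannot be fully told apart in this comparison. IL-7 was given at 5 ng/ml, and 4 of the knockout libraries and 3 of the control libraries had reduced IL-7, a change that the labels link to poorer cell recovery and RNA quality. A second set came from normal fetal liver on OP9-DL1. In it, 2 DN2a and 2 DN2b libraries received 1 µM γ-secretase inhibitor (GSI) for the last 12 h, and 4 DN2a and 2 DN2b libraries were untreated. The untreated DN2b library called replicate 1 and its GSI partner carry DN3 in their titles. Thymic DN3 cells gave 3 libraries, all with Bcl11b intact: replicate 1 carried an LckCre transgene, replicate 2 a CreERT2 transgene with undeleted floxed Bcl11b, and replicate 3 the CreERT2 transgene alone. The other libraries stood alone or nearly so. They included 1 thymic DN2 library with Bcl11b deleted by LckCre. Bone marrow precursors of CreERT2 mice gave 1 knockout library with floxed Bcl11b and 1 control library with wild-type Bcl11b. Both were tamoxifen-induced and cultured on OP9-DL4. Another 3 fetal liver libraries on OP9-DL1 were harvested 36 h after a further vector. They were 1 knockout with a Bcl11b vector, and 1 knockout and 1 control with the empty vector. Thymic DN3 cells carrying a CreERT2 transgene were given 100 nM 4-OH tamoxifen and cultured on OP9-DL4. They gave 1 knockout library of 4 days, with floxed Bcl11b, and control libraries of 3 and 4 days, with the CreERT2 transgene alone. The labels do not say which libraries came from separate embryos, and p-values then measure the spread between libraries.

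Between 11756 and 13370 genes reached 1 FPKM in each library. All 9 T-precursor markers averaged at least 1 FPKM in each group looked at, while the 3 B-cell markers in the table summed to at most 1.81 FPKM. Between 0.47% and 6.67% of genes were listed at the lowest value, and among the 6943 genes with a median of at least 10 FPKM, 0 to 87 were listed there in a given library. A member listed at 0.1 FPKM is therefore reported as listed at the lowest value and not as absent. In bulk libraries such as these, fewer cells of a type and less RNA per cell cannot be told apart.

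The 4 genes sat at different levels over the 47 libraries. Hes1 had the highest median, 50.1 FPKM (range 0.1 to 117.5), and reached 1 FPKM in 46 libraries. Nrarp had a median of 29.6 FPKM (0.1 to 98.3) and Dtx1 one of 25.4 FPKM (5.03 to 79.0). Dtx4 was the low member, with a median of 2.18 FPKM and a highest value of 5.53 FPKM, and it reached 1 FPKM in 41 libraries. Its fold changes on the log2(FPKM + 1) scale used below are the most compressed of the set, since the added 1 FPKM weighs most on low genes.

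**Figure D1:**
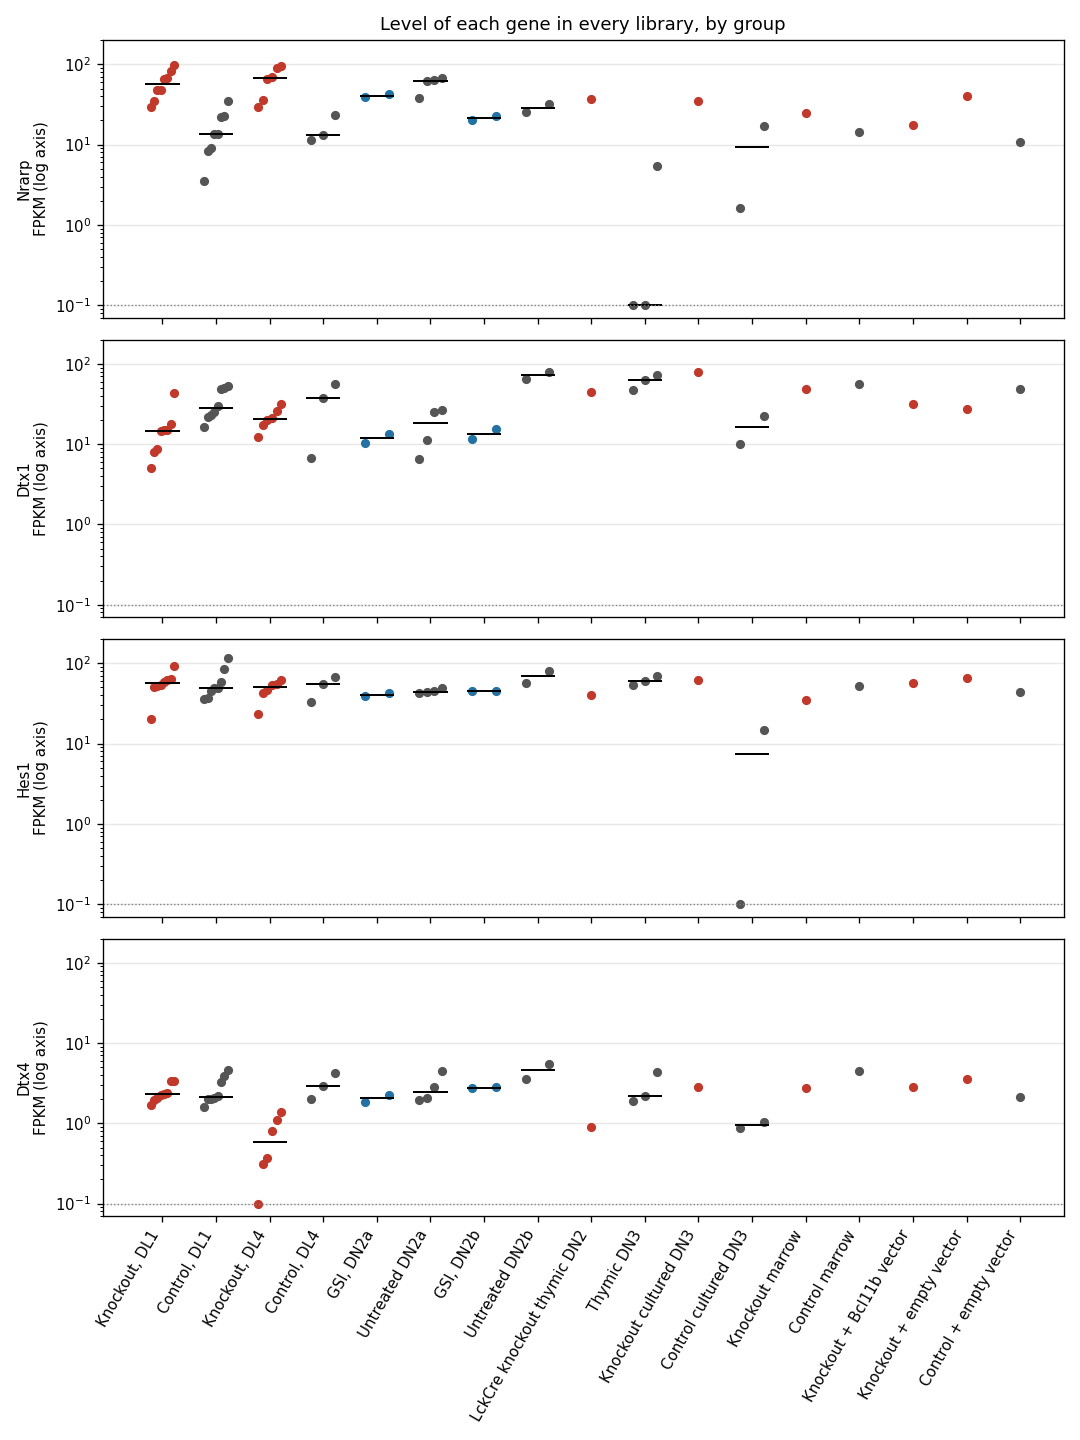
Level of Nrarp, Dtx1, Hes1 and Dtx4 in FPKM (log axis) in each of 47 libraries, by group. Points are libraries (red, Bcl11b knockout; blue, GSI; grey, Bcl11b intact without GSI), bars are medians and the dotted line is the lowest listed value of 0.1 FPKM. Nrarp was high in knockout and untreated DN2a libraries and listed at 0.1 FPKM in 2 thymic DN3 libraries, and Hes1 was low in the control cultured DN3 libraries.

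RefSeq windows of 250 bases before the annotated start (build GRCm38.p6) were matched for 2 of the 4 members, Nrarp and Dtx1, and are shown as the promoter-side sequence of genes whose levels follow. The files themselves were made on build mm9. The windows are chr2:25180508-25180757, plus strand, for Nrarp and chr5:120711670-120711919, minus strand, for Dtx1, both written 5′ to 3′ in the direction of the gene. Capitals mark a CCAAT box (ATTGG where it lies on the opposite strand) and the letters TATAA.
Nrarp: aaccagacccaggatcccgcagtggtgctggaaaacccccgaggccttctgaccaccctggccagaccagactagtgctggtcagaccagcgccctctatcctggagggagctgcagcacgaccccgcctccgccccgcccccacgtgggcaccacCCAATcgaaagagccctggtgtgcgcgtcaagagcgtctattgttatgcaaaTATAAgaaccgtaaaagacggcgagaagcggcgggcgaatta
Dtx1: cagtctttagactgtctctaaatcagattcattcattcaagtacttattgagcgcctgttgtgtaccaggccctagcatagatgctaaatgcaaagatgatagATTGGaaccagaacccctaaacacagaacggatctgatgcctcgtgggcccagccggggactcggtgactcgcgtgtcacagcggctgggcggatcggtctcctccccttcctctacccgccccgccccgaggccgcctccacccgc
In the Nrarp window the CCAAT box spans -94 to -90 from the start, and the TATAA letters span -42 to -38. The Dtx1 window holds this box on the opposite strand, at -147 to -143, and has no match to the TATAA letters on either strand. The core motif of RBPJ, TGGGAA, was searched on both strands, as was a longer form with a G in front, which contains the core. Neither form matched in either window. Of 32851 mouse windows of this length, 21.6% held the core and 5.42% the longer form. The box was held by 33.8% and the TATAA letters by 22.8%, and both were chosen after the windows had been read.

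Levels of each gene were compared with and without the γ-secretase inhibitor. In the 4 pairs of GSI-treated and untreated libraries that shared a title date, all 4 genes were lower with GSI in 4 of 4 pairs. No gene in the table passed the adjusted threshold, so none of these differences was called: limma called 0 of 12783 genes (0%), with 297 genes at an unadjusted p under 0.05. Within that fit Dtx1 had the smallest p of all genes tested, and Nrarp ranked 12. How many of all genes were lower in 4 of 4 pairs was not counted.

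Dtx1 showed the largest GSI difference of the 4. It had 10.3 and 13.53 FPKM in GSI DN2a libraries, against 25.4 and 26.2 FPKM in their untreated partners. In DN2b it had 15.5 and 11.5 FPKM with GSI, against 79.0 and 65.1 FPKM untreated. The 4 GSI libraries all lay below their 4 untreated partners, and after GSI the DN2a and DN2b values overlapped although the untreated values of the 2 stages did not. The 2 untreated DN2a libraries without a GSI partner had 11.2 and 6.50 FPKM, so over all 6 untreated libraries the groups overlapped. Its log2 difference was -1.70 (SE 0.27, n = 4 each), with a limma adjusted p of 1 as for the other 3 members, and -1.19 with all 6 untreated libraries (limma adjusted p = 0.999).

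Nrarp with GSI kept 0.609 to 0.801 of its untreated level. It had 42.6 and 38.9 FPKM in GSI DN2a libraries, against 67.2 and 63.9 FPKM untreated, and 20.2 and 22.4 FPKM in GSI DN2b libraries, against 25.2 and 31.7 FPKM untreated. Within each stage these date partners did not overlap. The untreated DN2a libraries without a partner had 37.6 and 61.4 FPKM, and the lower of them lay below both GSI DN2a libraries. Its log2 difference was -0.53 (SE 0.13).

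Hes1 had 39.6 and 42.1 FPKM in GSI DN2a libraries, against 48.6 and 44.6 FPKM untreated. In DN2b it had 45.2 and 44.9 FPKM with GSI, against 81.1 and 57.5 FPKM untreated, so the DN2b pair titled DN3 gave the widest gap. The 4 GSI libraries spanned 39.6 to 45.2 FPKM, and the untreated DN2a libraries without a partner lay within that span, at 44.4 and 43.3 FPKM. Hes1 differed by -0.39 on the log2 scale (SE 0.15).

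Dtx4 had 1.83 and 2.27 FPKM in GSI DN2a libraries, against 2.08 and 2.86 FPKM untreated, and 2.81 and 2.77 FPKM in GSI DN2b libraries, against 3.58 and 5.53 FPKM untreated. The gap was narrow in 3 of the 4 pairs and wide in the fourth. The untreated DN2a libraries without a partner had 4.43 and 1.93 FPKM, above and within the GSI range. Dtx4 differed by -0.36 on the log2 scale (SE 0.17). An exact two-sided permutation test shuffled GSI labels within stages, over 36 arrangements, and did not use the date pairs. This permutation test gave p = 0.0556 for Nrarp, Dtx1 and Hes1, the smallest value these arrangements allow, and p = 0.111 for Dtx4.

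**Figure D2:**
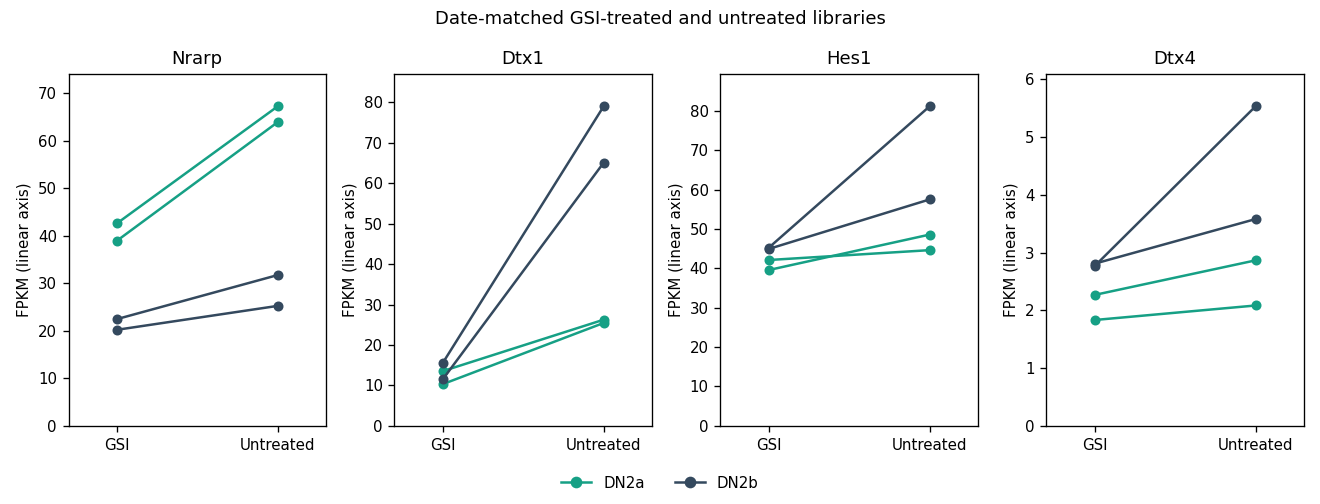
FPKM (linear axis from 0) of each gene in GSI-treated libraries and the untreated library of the same title date, joined by a line (green, DN2a; dark, DN2b). Every line runs upward from GSI to untreated, and the DN2b lines of Dtx1 start at 15.5 and 11.5 FPKM and end at 79.0 and 65.1 FPKM.

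The 2 stages were also compared in their response to GSI. Dtx1 with GSI kept 0.405 and 0.516 of its level in the DN2a pairs and 0.197 and 0.177 in the DN2b pairs. The difference between the stage responses was 1.27 on the log2 scale (SE 0.32, limma adjusted p = 1), and it ranked 7 by p among 13873 genes, where limma called 0 genes (0%) and 129 had an unadjusted p under 0.05. For Nrarp the same difference was -0.28 (95% interval -0.89 to 0.33), for Hes1 0.40 (-0.27 to 1.08) and for Dtx4 0.35 (-0.51 to 1.2).

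The other genes of the pathway gave no call with GSI either. Of 57 listed genes, 56 were in the table and 50 were tested, and their median log2 difference was 0.03, beside -0.02 over all genes tested. The 10 other Notch-responsive genes that were tested, such as Ptcra, Myc and Il2ra, had a median of -0.08. Summed OP9 stroma markers (8 of 9 in the table) spanned 12.1 to 51.8 FPKM in GSI libraries, against 8.57 to 19.5 in untreated DN2a and 13.7 to 34.4 in untreated DN2b libraries, with Dcn listed at the lowest value in all untreated libraries of this set. Their part in the GSI differences was not tested.

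Between fetal liver knockouts and controls the same 4 genes differed in different directions. Nrarp was higher and Dtx4 lower in knockouts, and Dtx1 and Hes1 did not pass the test. This made 2 of 4 members called at a limma adjusted p under 0.05, in a comparison where 16.9% of 12678 genes were called (9.8% higher and 7.1% lower in knockouts). Bcl11b itself averaged 24.0 ± 7.06 FPKM in knockout libraries (SD, n = 14) and 56.4 ± 19.8 FPKM in control libraries (SD, n = 11), a log2 difference of -1.22 (limma adjusted p = 0.000127). The table gives 1 value per gene, which can include transcript outside the deleted segment.

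Nrarp was the member with the widest knockout difference. On OP9-DL1 it spanned 29.3 to 98.3 FPKM in 8 knockout libraries (median 56.8), against 3.56 to 34.9 FPKM in 8 controls (median 13.7). On OP9-DL4 it spanned 29.6 to 94.4 FPKM in 6 knockout libraries (median 67.7), against 23.4, 11.3 and 13.3 FPKM in the controls. The groups met only at their edges on OP9-DL1 and did not overlap on OP9-DL4. Over both stromas it averaged 61.4 ± 24.2 FPKM in knockouts (SD, n = 14) and 16.01 ± 8.92 FPKM in controls (SD, n = 11), and the log2 difference was 1.94 (SE 0.28, limma adjusted p = 1e-05).

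Nrarp was higher in the knockout in 9 of 9 pairs sharing a title date, by 1.26 to 8.24 times. Of these pairs, 3 were harvests of the same cultures, which the main fit counts as separate libraries. With those harvests averaged, Nrarp was higher in 7 of 7 culture pairs. The lowest ratios were 1.26 and 1.55 in the 2 pairs with reduced IL-7 and 1.94 in the pair harvested on day 9, and the other 6 pairs ranged from 5.33 to 8.24. With standard IL-7 alone the log2 difference was 2.35 (limma adjusted p = 1.2e-05). With reduced IL-7 alone it was 0.81 (SE 0.40, limma adjusted p = 0.384), and within the earliest of 3 title years, whose libraries all had reduced IL-7, it was 0.54 (limma adjusted p = 0.377). The test of the difference between the IL-7 conditions, chosen after the data were seen, gave -1.54 (SE 0.55, limma adjusted p = 0.246), and 0.701% of genes were called in it. IL-7 condition and year largely coincide here. On 1 date both IL-7 conditions were used for knockouts on OP9-DL4. There Nrarp had 94.4 FPKM with reduced and 69.8 FPKM with standard IL-7, 1 library against 1. No control with reduced IL-7 shares that date. Among the 5 knockout and 3 control libraries titled DN2, also chosen after the data were seen, the knockout difference was 1.91 (SE 0.41, limma adjusted p = 0.0606). The only date pair with both libraries titled DN2b had 29.3 FPKM in the knockout and 3.56 FPKM in the control, 1 library against 1. Within the middle year the Nrarp difference was 2.50 (limma adjusted p = 0.00108) and within the last year 2.29 (limma adjusted p = 0.0008).

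A set of 3 knockout and control pairs was harvested from the same cultures on days 9, 10 and 12. Nrarp had 67.8, 98.3 and 47.7 FPKM in the knockout on these days, against 34.9, 13.7 and 8.40 FPKM in the control. The control level was lower on each later day, while the knockout level was highest on day 10. The library pairs share their culture, so the days are described and not tested.

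**Figure D3:**
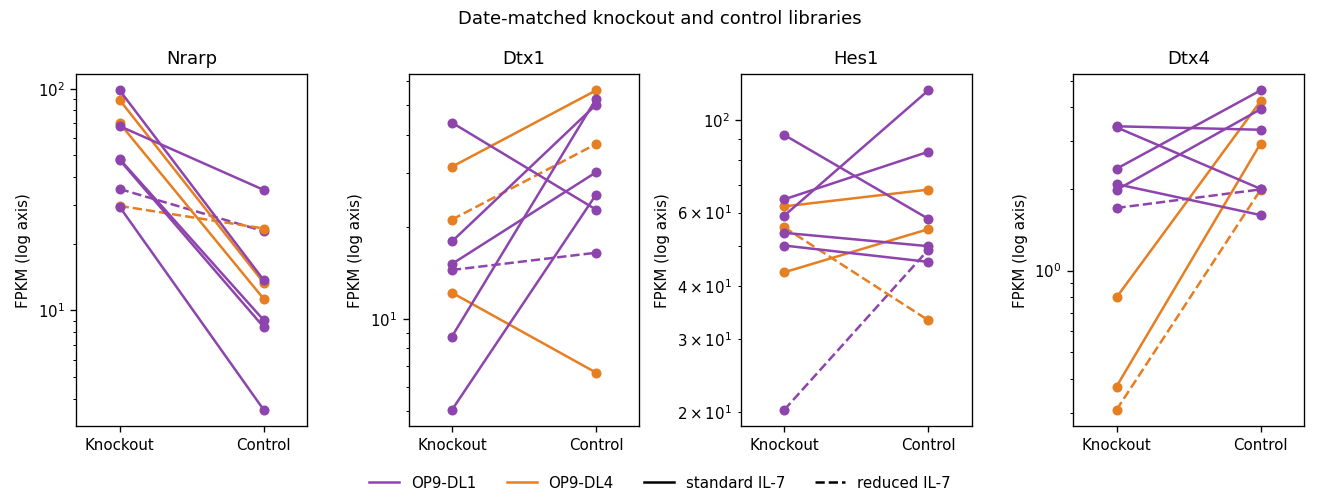
FPKM (log axis) of each gene in 9 knockout libraries and the control library of the same title date, joined by a line (purple, OP9-DL1; orange, OP9-DL4; dashed, reduced IL-7). All 9 Nrarp lines run downward from knockout to control, whereas the lines of Dtx1 and Hes1 run both ways.

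Dtx1 leaned the other way. It spanned 5.03 to 43.8 FPKM in 8 knockout libraries on OP9-DL1 (median 14.8), against 16.4 to 52.4 FPKM in controls (median 27.8). On OP9-DL4 it spanned 12.2 to 31.4 FPKM in knockouts (median 20.5), against 37.3, 6.66 and 55.9 FPKM in controls. The groups overlapped on both stromas, and the OP9-DL4 controls held the widest spread. Dtx1 was lower in the knockout in 7 of 9 pairs, by as much as a ratio of 0.167, and higher in 2, by 1.83 and 1.93 times. With harvests of the same cultures averaged, it was lower in 5 of 7 culture pairs. The log2 difference was -0.85 (95% interval -1.50 to -0.21, limma adjusted p = 0.0628).

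The Dtx1 call depended on which libraries entered. On OP9-DL1 alone the difference was -1.21 (SE 0.33, limma adjusted p = 0.0275) and on OP9-DL4 alone -0.28 (SE 0.54, limma adjusted p = 0.85). It also passed the threshold without the knockout library on OP9-DL1 called replicate 8, at -0.99 (limma adjusted p = 0.0226), or without the control on OP9-DL4 called replicate 2, at -1.18 (limma adjusted p = 0.00176). Without the control on OP9-DL1 called replicate 1 the limma adjusted p was 0.0496.

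Hes1 spanned 20.3 to 92.0 FPKM in knockouts on OP9-DL1 (median 56.3), against 35.8 to 117.5 FPKM in controls (median 49.4). On OP9-DL4 it spanned 23.6 to 62.1 FPKM in knockouts (median 50.3), against 33.2, 54.8 and 68.1 FPKM in controls. The ranges overlapped almost wholly, and 5 of 9 pairs were lower and 4 higher in the knockout. With harvests of the same cultures averaged, 4 of 7 culture pairs were lower. The log2 difference was -0.10, with a 95% interval of -0.46 to 0.25 (limma adjusted p = 0.769), so a change much beyond that interval was not seen, and smaller ones could not be resolved.

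Dtx4 was lower in knockouts in the pooled comparison, but its values differed by stroma. On OP9-DL4 the knockout libraries had 1.104, 0.307, 1.37, 0.374, 0.1 and 0.796 FPKM, against 1.98, 2.93 and 4.198 FPKM in controls. On OP9-DL1 it spanned 1.70 to 3.39 FPKM in knockouts (median 2.30), against 1.60 to 4.60 FPKM in controls (median 2.13). The OP9-DL4 groups did not overlap and the OP9-DL1 groups did. The pooled log2 difference was -0.49 (SE 0.17, limma adjusted p = 0.0416), and with the date pairs as a block it was -0.56 (SE 0.22, limma adjusted p = 0.158), which is no longer called. The call was also lost when any of 15 of the 25 libraries was left out. Of 17 other settings tried, the date-pair block among them, 13 lost the Dtx4 call.

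The knockout differences were then compared between stromas. For Dtx4 the log2 difference was -1.22 on OP9-DL4 (SE 0.26, limma adjusted p = 0.0305) and -0.12 on OP9-DL1 (SE 0.16, limma adjusted p = 0.796). The test of this difference gave -1.1 (SE 0.29, limma adjusted p = 0.895), ranking 13 by p among 14271 genes, where limma called 0 genes (0%) and 338 had an unadjusted p under 0.05. All OP9-DL4 libraries date from the earlier 2 title years and most OP9-DL1 libraries from the last, so stroma and year cannot be fully told apart. Nrarp differed by 1.91 on OP9-DL4 (limma adjusted p = 0.0271) and 2.01 on OP9-DL1 (limma adjusted p = 0.000964), and the difference between them was -0.11 (95% interval -1.36 to 1.13). The intervals were likewise wide for Dtx1, 0.95 (-0.40 to 2.30), and Hes1, 0.14 (-0.64 to 0.92).

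Markers of other cells were summed in the same libraries. Summed NK-cell markers (4 of 4 in the table) spanned 1.11 to 31.9 FPKM in knockouts (median 11.5), against 0.829 to 4.95 FPKM in controls (median 2.29). Most of this was Klrd1, while Ncr1 stayed at or below 0.171 FPKM and Eomes at or below 0.809 FPKM in all 25 libraries. The 2 globin genes in the table summed to 137 to 863 FPKM in knockouts and 15.2 to 398 FPKM in controls, and OP9 stroma markers to 6.38 to 74.4 FPKM in knockouts (median 22.2) and 8.84 to 69.4 FPKM in controls (median 24.9), nearly the same range. Kit, which marks the sort gate, was higher in the knockout by 0.96 on the log2 scale (limma adjusted p = 0.0051). The part of these in the member differences was not tested.

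Among the other pathway genes, 50 were tested in the knockout comparison, of which 10 rose, 4 fell and 36 did not pass, where 9.8% of all genes were called higher and 7.1% lower. Their median log2 difference was 0.10, beside 0.04 over all genes. Dlk1, a membrane protein related to the Delta ligands, averaged 99.5 FPKM in knockouts and 11.5 FPKM in controls, a log2 difference of 3.57 (limma adjusted p = 1.9e-05). Ptcra, which encodes the pre-T-cell receptor alpha chain and is a Notch-responsive gene of later DN cells, averaged 26.2 FPKM in knockouts and 83.5 FPKM in controls, at -2.22 (limma adjusted p = 0.000227). Notch3, a receptor, averaged 16.2 FPKM in knockouts and 32.7 FPKM in controls, at -0.95 (limma adjusted p = 0.00432). Gata3, a T-lineage transcription factor, rose by 0.78, Igf1r, a growth factor receptor, by 0.71, and Heyl, a relative of Hes1, by 0.63. Of the 10 tested genes of the Notch-responsive list, 4 were called higher and 1, Ptcra, lower.

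Knockout cells on OP9-DL1 were set beside untreated DN2a cells, the stage whose gate the protocol gives for knockouts, although only 2 of these 8 knockout libraries carry DN2a in their titles. The groups also differ in Cre retrovirus, which only the knockout cells received. Most of these knockout libraries are from the last title year, and all untreated DN2a libraries are from earlier years. Reduced IL-7 was used in the knockout group only. Genotype, virus and year therefore cannot be fully told apart here. None of the 4 members was called, where 16.1% of 13097 genes were (9.35% higher and 6.73% lower in knockouts). Bcl11b itself spanned 8.77 to 37.9 FPKM in these knockout libraries, against 13.3, 0.1, 15.1 and 6.27 FPKM in DN2a, so the targeted gene was not lower in the libraries labelled knockout (log2 difference 1.70, SE 0.57, limma adjusted p = 0.0558). Nrarp had 67.2, 63.9, 37.6 and 61.4 FPKM in untreated DN2a libraries, inside the knockout range, and the log2 difference of knockout minus DN2a was -0.02 (95% interval -0.64 to 0.60, limma adjusted p = 0.966). For Dtx1, with 25.4, 26.2, 11.2 and 6.50 FPKM in DN2a, it was -0.16 (-1.15 to 0.83). For Hes1 it was 0.23 (-0.37 to 0.82) and for Dtx4 -0.13 (-0.54 to 0.28). Of 50 other pathway genes tested here, 8 rose and 1 fell, among them Dlk1 at 3.85 and Dtx3, another Deltex gene, at 1.34.

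The stages were compared in normal cells. In untreated cells Nrarp was higher in DN2a than in DN2b and Dtx1, Hes1 and Dtx4 were lower on average, but only Dtx1 was called. Dtx1 had 25.4, 26.2, 11.2 and 6.50 FPKM in DN2a libraries, against 79.0 and 65.1 FPKM in DN2b, and its log2 difference was -2.18 (SE 0.52, limma adjusted p = 0.0378), where 9.23% of 13364 genes were called lower and 4.23% higher in DN2a. Nrarp differed by 0.96 (SE 0.26, limma adjusted p = 0.0507), with all 4 DN2a libraries above the DN2b values of 25.2 and 31.7 FPKM. Hes1 had 48.6, 44.6, 44.4 and 43.3 FPKM in DN2a, against 81.1 and 57.5 FPKM in DN2b, a difference of -0.59 (SE 0.18, limma adjusted p = 0.0675). Dtx4 had 2.08, 2.86, 4.43 and 1.93 FPKM in DN2a, against 3.58 and 5.53 FPKM in DN2b, and the groups overlapped (log2 difference -0.56, limma adjusted p = 0.239).

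The Dtx1 call was lost without DN2a replicate 3 or 4 or either DN2b library, with log2 differences of -1.82 to -2.32 and limma adjusted p of 0.0689 to 0.195. The DN2a libraries also had higher sums of myeloid and globin genes. The 4 myeloid markers in the table summed to 48.1 to 65.4 FPKM in DN2a and 7.48 to 18.1 FPKM in DN2b. The 2 globin genes summed to 993 to 1341 FPKM in DN2a and 39.2 to 56.1 FPKM in DN2b. Mpo supplied most of the myeloid sum. Their part in the stage differences was not tested.

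Of the other pathway genes, 53 were tested between stages, of which 1 was higher and 6 lower in DN2a, where 4.23% of all genes were called higher and 9.23% lower. The receptors Notch1, at 73.5 FPKM in DN2a and 281 FPKM in DN2b, and Notch3, at 16.2 FPKM in DN2a and 61.6 FPKM in DN2b, were among the 6 lower ones, with log2 differences of -1.95 and -1.81. Notch4, Ptcra, Dtx3 and Dtx3l, the last a Deltex relative, were also lower, and Tle1, a co-repressor, was higher.

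Nrarp had its lowest group mean in thymic DN3 cells, whereas the other 3 members had theirs in other groups. Nrarp had 5.44, 0.1 and 0.1 FPKM in thymic DN3 libraries, against 25.2 and 31.7 FPKM in DN2b cultures. Dtx1 had 47.7, 62.4 and 72.7 FPKM in DN3, against 79.0 and 65.1 FPKM in DN2b. Hes1 had 69.9, 53.7 and 60.8 FPKM in DN3, against 81.1 and 57.5 FPKM in DN2b. Dtx4 had 1.91, 4.35 and 2.18 FPKM in DN3, against 3.58 and 5.53 FPKM in DN2b. Nrarp differed by -3.88 on the log2 scale (SE 0.72) and did not pass the threshold (limma adjusted p = 0.0911), where 33 of 13495 genes (0.245%) were called. Without the LckCre library, which held the 5.44 FPKM, it was called at -4.74 (limma adjusted p = 0.00131). That call rests on 2 DN3 libraries both listed at 0.1 FPKM, which show no spread. The DN2b library with 25.2 FPKM carries DN3 in its title. In the 2 libraries where Nrarp was listed at the lowest value, Cd4, Cd8a and Cd8b1, which mark double-positive thymocytes, were listed there as well, and 34 and 27 of the 6943 well expressed genes. Thymus and culture, and year of the title, differ along with the stage and cannot be told apart from it.

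**Figure D4:**
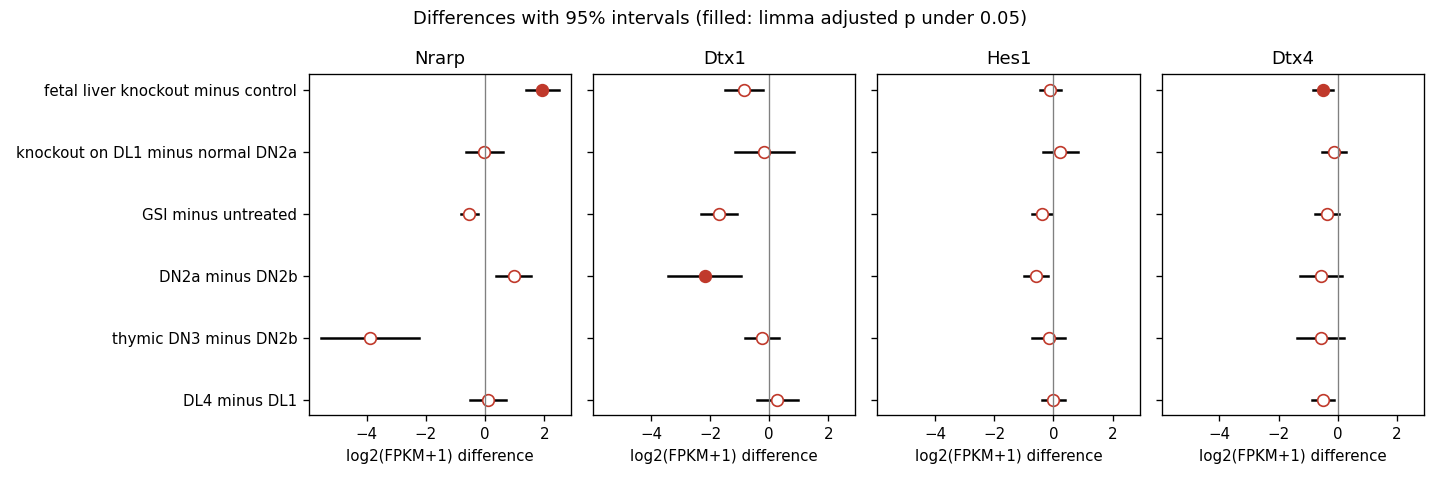
Difference of each gene on the log2(FPKM + 1) scale (x axis) in 6 comparisons, with 95% intervals from limma. Filled points had an adjusted p under 0.05: Nrarp and Dtx4 between fetal liver knockout and control, and Dtx1 between DN2a and DN2b.

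Delta-like 4 was compared with Delta-like 1 across both genotypes, with genotype and IL-7 in the model. None of the 4 members was called, where 37 of 12924 genes (0.286%) were. The log2 difference was 0.10 for Nrarp (95% interval -0.51 to 0.72), 0.26 for Dtx1 (-0.43 to 0.96) and 0.00 for Hes1 (-0.38 to 0.38). Dtx4 was at -0.48 (-0.85 to -0.11, limma adjusted p = 0.564). Title year and stroma largely coincide, and with title year in the model the Nrarp difference turned to -0.49 (SE 0.56, limma adjusted p = 0.974). On the dates when both stromas were used with 1 genotype, Nrarp had 35.6 FPKM on OP9-DL4 and 35.3 FPKM on OP9-DL1 in knockouts, and 23.4 FPKM on OP9-DL4 and 21.96 FPKM on OP9-DL1 in controls. Dtx1 had 17.4 and 14.4 FPKM on OP9-DL4 and OP9-DL1 in knockouts and 37.3 and 21.5 FPKM in controls. Each of these is 1 library against 1, with no replicate check.

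The single libraries give values without replicates. Where Bcl11b was deleted in vivo with LckCre, Nrarp had 36.9 FPKM in the DN2 library, against 5.44 FPKM in the LckCre DN3 library, a log2 difference of 2.56, where 8.29% of genes lay past 2-fold. These libraries differ in stage as well as genotype. Dtx1 had 44.9 FPKM in the LckCre knockout and 47.7 FPKM in LckCre DN3, Hes1 40.5 and 69.9 FPKM, and Dtx4 0.90 and 1.91 FPKM.

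The libraries of the vector experiment are all titled DN2b. In them Nrarp had 39.9 FPKM in knockout cells and 10.9 FPKM in control cells, both with the empty vector, a log2 difference of 1.79 (8.26% of genes past 2-fold). Return of Bcl11b by a vector gave 17.4 FPKM, against 39.9 FPKM with the empty vector, a log2 difference of -1.15 (3.51% of genes past 2-fold). Bcl11b itself had 105 FPKM with its vector and 24.7 FPKM with the empty vector. Of the 4 members Nrarp alone lay past 2-fold: Dtx1 had 31.2 FPKM with the Bcl11b vector and 27.0 FPKM with the empty vector, Hes1 57.5 and 65.0 FPKM, and Dtx4 2.83 and 3.58 FPKM.

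In bone marrow cultures Nrarp had 24.9 FPKM in the library labelled knockout and 14.4 FPKM in the control, a log2 difference of 0.75, where 2.85% of genes lay past 2-fold. Bcl11b had 45.0 FPKM in the library labelled knockout and 44.9 FPKM in the control, so the level of the targeted gene did not separate these 2 libraries. Hes1 had 34.9 FPKM in the library labelled knockout and 52.5 FPKM in the control, Dtx1 48.9 and 55.5 FPKM, and Dtx4 2.72 and 4.43 FPKM.

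The lowest Hes1 values of all libraries were those of the control cultured DN3 cells. Hes1 had 62.7 FPKM in the knockout, against 14.7 FPKM in the 3-day control and 0.1 FPKM in the 4-day control. Nrarp had 35.4 FPKM in the knockout, against 17.0 and 1.63 FPKM in these controls, Dtx1 78.0 FPKM, against 22.4 and 10.1 FPKM, and Dtx4 2.81 FPKM, against 0.89 and 1.03 FPKM. All 4 members were higher in the knockout library than in either control. How many of all genes were higher than in both controls was not counted. A difference at least as large as that of Nrarp, in either direction, was held by 18.5% of genes from the 3-day and 0.461% from the 4-day control. For Dtx4 these shares were 18.8% and 18%, for Dtx1 5.5% and 1.26%, and for Hes1 3.91% and 0.0659%. Over all genes compared, the median log2 difference was 0.258 from the 3-day and 0.101 from the 4-day control. The log2 differences of Hes1 were 2.02 from the 3-day and 5.86 from the 4-day control, where 19.2% and 15.1% of genes lay past 2-fold, 12.6% and 10.4% in the higher direction. Il2ra, a marker of the DN2 and DN3 stages, moved with them, at 723 FPKM in the knockout, against 95.8 and 123 FPKM in the controls. Its part was not tested.

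The order of the group means summarises each gene. Nrarp was highest in knockouts on OP9-DL4 (64.0 FPKM), knockouts on OP9-DL1 (59.4) and untreated DN2a (57.5), neighbours whose ranges overlapped, and lowest in thymic DN3. Dtx1 was highest in the cultured DN3 knockout library (78.0 FPKM), untreated DN2b (72.0) and thymic DN3 (61.0), again overlapping, and lowest in the GSI groups (13.52 FPKM in DN2b and 11.9 in DN2a), which overlapped each other. Hes1 was highest in untreated DN2b (69.3 FPKM), and from there down to untreated DN2a (45.2 FPKM) all but 1 neighbouring pair of groups overlapped. Dtx4 was highest in untreated DN2b (4.55 FPKM) and lowest in knockouts on OP9-DL4.

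Across the 47 libraries the pairs of members given here varied together weakly or in opposition. Pearson's r of log2 values was -0.42 for Nrarp with Dtx1, 0.23 for Nrarp with Hes1, 0.28 for Dtx1 with Hes1 and 0.36 for Hes1 with Dtx4. Libraries share groups, dates and cultures, and these values are given as a description. Nrarp ran opposite to Bcl11b (r = -0.63, and -0.76 in the 25 fetal liver libraries), while Dtx1 ran with it in fetal liver (0.71). Dtx1 also ran with the receptors Notch1 (0.62) and Notch3 (0.60), whereas Nrarp ran opposite to Notch3 (-0.67).

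**Figure D5:**
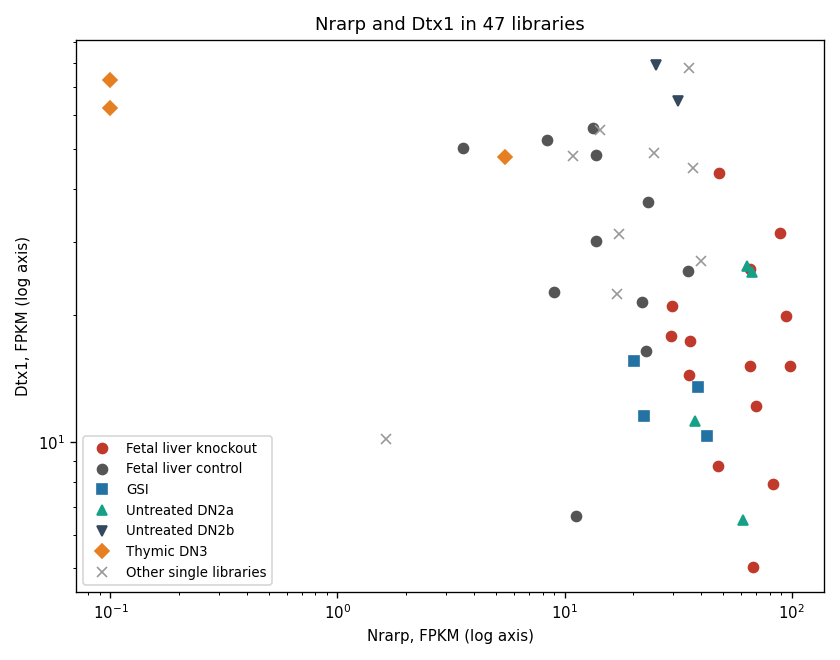
Nrarp (x axis) against Dtx1 (y axis), both in FPKM on log axes, in 47 libraries. Fetal liver knockouts lie to the right and lower than most controls, the 4 GSI libraries lie low on the Dtx1 axis at 10.3 to 15.5 FPKM, and thymic DN3 libraries lie at the upper left.

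Among 10264 genes, those whose log2 values were most like each member over 47 libraries were listed. For Nrarp they were Fam129b (Pearson's r = 0.86), Ctbp2 (0.86) and Fdx1 (0.85). For Dtx1 they were AW011738 (0.79), Mllt4 (0.75) and Tcte2 (0.74). For Dtx4 they were Tmem176a (0.79), Tmem150b (0.77) and Tmem176b (0.75). The genes most like Hes1, namely Bin1 (0.75), Ctla2a (0.74) and Nfix (0.72), had Spearman's rho of only 0.28, 0.25 and 0.28.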

How the data were processed

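RNA was selected on oligo-dT beads, fragmented and copied by random priming, with no step that marks strand, per the labels' protocols. Reads of a gene and of an overlapping antisense gene thus count together. Values are FPKM, deposited by the authors as 1 table whose file name says it was adjusted with ComBat, a batch-removal method. Reads were placed on build mm9, per the submitters' processing notes. How they were aligned and quantified, and which batches ComBat removed, is not given in the sources used here. Depth is unknown, so no counting error can be given. ComBat can alter levels, and whether it set the low values listed at 0.1 FPKM was not tested. A further 16 columns matched no sample and were not used.

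Differences were fitted with limma 3.58.1 (R 4.3.3) on log2(FPKM + 1), which understates changes of low genes. Genes needed 1 FPKM in as many libraries as the smaller group had, and p-values were adjusted by Benjamini-Hochberg over all genes tested, called under 0.05. The fetal liver fit held genotype, stroma and IL-7, and the GSI fit treatment and stage. The fits were tested on simulated data. Title dates pair 9 knockout and control libraries (correlation of deviations -0.065 to 0.535) and 4 GSI and untreated libraries (0.666 to 0.73). Alternatives were another pseudocount, no filter, quantile normalization, robust variance moderation, blocks, single years, stromas and IL-7 conditions, and each library left out. The members and gene lists were chosen with earlier results of these data known. Named genes were the members, the 6 largest changes among called pathway genes, and the 3 genes most correlated with each member. Figures used matplotlib 3.10.9.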

Additional observations from a re-analysis of the deposited data

Results flagged for a closer look

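Dtx1 in the knockout library on OP9-DL1 called replicate 8 had 43.8 FPKM, far above the next highest of the 8 libraries of its group, at 17.9 FPKM. The gap made up 0.668 of the group's whole range. This was the only library so far from its neighbours among 16 combinations of gene and group examined, and chance flags about 1 in 20 such groups.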

How the results depend on the processing

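Called members between fetal liver knockout and control were 2. They were 1 with a pseudocount of 0.1, no filter, no covariates, title year as covariate, standard IL-7 alone, each culture counted once, and the replicate block over 9 date pairs or over 7 culture pairs, and 0 within the earliest title year, with reduced IL-7 alone, and among libraries titled DN2 in both genotypes (chosen after seeing the data; Nrarp 1.91, limma adjusted p = 0.0606). Leaving out each library gave 1 to 3. Dtx4 lost its call without knockout replicates 2 to 6 on OP9-DL1 or 2, 4, 5 or 6 on OP9-DL4, or control replicates 2, 5 or 6 on OP9-DL1 or 1 to 3 on OP9-DL4; Dtx1 gained one without knockout replicate 8 or control replicate 1 on OP9-DL1 or control replicate 2 on OP9-DL4, and with quantile normalization (limma adjusted p = 0.0365). Nrarp stayed called under each single omission, at 1.78 to 2.07.

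Some directions turned. Knockout Dtx1 was 0.11 within the middle title year, and knockout Hes1 0.0061 within the last and 0.018 with each culture counted once. Nrarp on OP9-DL4 minus OP9-DL1 was -0.027 within the earliest year, -0.49 with year as covariate and -0.0084 to 0.19 on omission, and Hes1 -0.12 to 0.061. The stroma contrast of knockout effects ran from -0.33 to 0.24 for Nrarp and -0.042 to 0.26 for Hes1 on omission. Knockout minus untreated DN2a gave Nrarp 0.068 with standard IL-7, 0.014 with both stromas and -0.21 to 0.11 on omission, Dtx1 0.089 with both stromas and -0.53 to 0.095, and Dtx4 -0.24 to 0.053. Thymic DN3 minus DN2b gave Hes1 -0.40 to 0.086 and 0 to 1 called members. The cause was not tested.

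Between DN2a and DN2b 1 member was called, and 0 with a pseudocount of 0.1, within the earliest year or without the day 4.5 library. There were 2 with quantile normalization, 3 with GSI libraries added, and 0 to 1 on omission. Dtx1 lost its call in 4 of the 8 alternatives run beside the single omissions. Nrarp was called without DN2a replicate 3 (1.15, limma adjusted p = 0.0278). With GSI 0 members were called under each alternative run, and the replicate block by date left Nrarp and Dtx1 at a limma adjusted p of 0.285. The block changed no call other than Dtx4's. Unknown depth limits the reading of Dtx4 and of values at 0.1 FPKM.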
